A study of Mus musculus with 33 samples.

Results

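The 32 genes described here are a set of endothelial and vessel genes: surface and junction proteins shared by most blood vessels, vascular growth factor receptors and ligands, vessel transcription factors, transporters of the blood-brain barrier, lymphatic markers, and the Ly6 genes Ly6a and Ly6c1. They were chosen by name, with no threshold on their values, and matched to the deposited table by symbol; Ly6a and Ly6c1 were singled out with their E9.5 levels in these data known. All 32 of 32 were found among the 55401 genes of the table, and all 32 were among the 20073 genes that passed the filter on low counts. The libraries were made from polyadenylated RNA of mouse embryos, and the labels name the tissue as frontal bone of the skull vault. There were 33 libraries from 11 labelled stages, 3 for each: embryonic day 8.5 (E8.5) and then every 0.5 days up to E12.5, followed by E13.5 and E14.5. The labels name no treatment, genotype or strain, so every group is a stage and no group serves as an untreated control. Nor do they state if a stage was sampled from 3 embryos, 3 litters or 1 pool; the p-values therefore measure only how far these libraries differ, which may be technical.

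Column totals ranged from 14516518 to 19964404 counts, with a median of 17081223. The labelled tissue was checked against its markers: the bone and mesenchyme genes Runx2, Col1a1 and Dcn rose between E8.5 and E14.5, from 0.576 to 45.1, from 18.0 to 1882 and from 1.34 to 516 CPM (counts scaled to a common library size, here with TMM factors). Genes of other tissues were present as well, since 8 neuron genes summed to between 562 and 580 CPM and the skin keratin Krt5 stood at 483 CPM at E14.5. The E12 and E13.5 libraries were more spread than the others. Their least alike pairs had correlations of log2 CPM over genes of 0.965 and 0.975, against 0.988 or more at every other stage, and globin transcripts took 1.85% ± 0.680 (SD, n = 3) of counts at E12, against 0.245% to 0.660% at the other stages. The 3 libraries labelled E9.5 stood apart in another way: 106 genes were at least 8-fold above both E9 and E10 there, where the other stages with 2 neighbours had between 0 and 50 such genes. Whether these libraries hold tissue or RNA of another source was not tested, and that limit bears on every E9.5 value and on the steps into and out of E9.5. In a bulk sample, a lower level of an endothelial transcript can mean fewer endothelial cells or less RNA per cell, and these cannot be told apart here.

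Vessels form when endothelial precursors, which answer to VEGF through the receptor Kdr, assemble into a plexus that later sprouts and is remodelled. Angiopoietins acting on Tek then steady the vessel wall together with mural cells. Vessels that enter the brain acquire tight junctions and dedicated transporters, while fenestrated vessels carry diaphragms made of Plvap, and a separate lineage marked by Prox1 builds the lymphatic vessels. ETS factors, among them Erg and Fli1, are regulators of many endothelial genes.

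Promoter sequence is shown for 6 members, because the 3 VEGF receptor genes moved together over the stages and because Erg, Emcn and Cd34 rose by E14.5 and hold letters that ETS factors can bind. RefSeq promoters were matched for 18 of the 32 members, 25 promoters in all. Each sequence is the 250 bases before a RefSeq transcript start, 5′ to 3′ on the gene's strand, in build GRCm38.p6; capitals mark ETS letters (CAGGAAG or CCGGAAG, or CTTCCTG or CTTCCGG on the other strand) and GATA letters (AGATAA or TTATCT). The 2 motifs share no letters with each other in these windows.
Kdr, chr5:75978456-75978705, minus strand: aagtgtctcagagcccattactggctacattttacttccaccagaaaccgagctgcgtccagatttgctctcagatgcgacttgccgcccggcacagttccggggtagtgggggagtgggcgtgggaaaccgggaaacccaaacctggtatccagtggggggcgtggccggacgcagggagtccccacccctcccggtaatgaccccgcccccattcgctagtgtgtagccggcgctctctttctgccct
Flt1, chr5:147726012-147726261, minus strand: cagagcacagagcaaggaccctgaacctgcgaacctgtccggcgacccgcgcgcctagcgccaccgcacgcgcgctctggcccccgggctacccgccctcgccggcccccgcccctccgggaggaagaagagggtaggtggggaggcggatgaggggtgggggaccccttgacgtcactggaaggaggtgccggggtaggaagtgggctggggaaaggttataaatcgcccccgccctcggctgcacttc
Flt4, chr11:49609429-49609678, plus strand: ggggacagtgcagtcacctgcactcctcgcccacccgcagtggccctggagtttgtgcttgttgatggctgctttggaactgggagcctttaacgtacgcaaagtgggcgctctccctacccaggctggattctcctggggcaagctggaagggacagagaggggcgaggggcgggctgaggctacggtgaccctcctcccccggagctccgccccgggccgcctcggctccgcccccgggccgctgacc
Erg, chr16:95459349-95459598, minus strand: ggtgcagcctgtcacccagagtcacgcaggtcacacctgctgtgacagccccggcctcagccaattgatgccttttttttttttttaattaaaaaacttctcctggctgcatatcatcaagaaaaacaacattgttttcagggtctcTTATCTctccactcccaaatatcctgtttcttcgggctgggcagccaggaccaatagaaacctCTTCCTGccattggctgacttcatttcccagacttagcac
Emcn, chr3:137340828-137341077, plus strand: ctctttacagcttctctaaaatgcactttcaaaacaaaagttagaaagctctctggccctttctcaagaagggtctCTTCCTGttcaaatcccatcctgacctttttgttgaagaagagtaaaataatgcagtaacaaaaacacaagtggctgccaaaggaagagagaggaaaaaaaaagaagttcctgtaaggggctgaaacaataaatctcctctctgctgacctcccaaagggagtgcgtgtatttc
Cd34, chr1:194938571-194938820, plus strand: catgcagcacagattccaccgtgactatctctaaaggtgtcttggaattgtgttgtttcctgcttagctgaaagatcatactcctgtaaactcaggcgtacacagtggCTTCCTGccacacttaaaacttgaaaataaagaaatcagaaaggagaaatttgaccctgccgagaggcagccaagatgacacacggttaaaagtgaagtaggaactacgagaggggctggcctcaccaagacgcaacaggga
The ETS letters begin 40 bases before the start in Erg, 174 in Emcn and 142 in Cd34, and the GATA letters 103 bases before the start in Erg. None of these letters lie in the printed windows of Kdr, Flt1 and Flt4. Erg, Emcn and Cd34 were picked for holding them, so the contrast between the 2 groups of genes is no result. Only these exact letters were searched, and other or shorter letters that ETS factors can bind were not looked for. Over a window from 250 bases before to 50 after the start, ETS letters stood in 6 of 25 member promoters (24%), which belong to Apln, Cd34, Egfl7, Emcn and Erg, and in 20.9% of all 32851 promoters of the same length. GATA letters stood in 3 of 25 (12%), in Erg, Tal1 and Tek, and in 11.2% of all promoters. A match describes the letters and is not a site of binding.

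Every one of the 32 members differed over the 11 stages by the test of any difference (edgeR's quasi-likelihood test, Benjamini-Hochberg adjusted over all genes tested, threshold 0.05), and so did 95.3% of all genes tested. Read against that share, a difference over the stages is the common case in this table. Between E8.5 and E14.5, 22 members were higher, 7 were lower and 3 did not pass. That is 68.8% higher and 21.9% lower, where 41.1% of all genes tested were higher and 33.5% were lower (74.6% in either direction). The median log2 fold change of the members was 0.66, beside 0.16 over all genes tested. The 7 that fell were Plvap, the 3 VEGF receptor genes Kdr, Flt1 and Flt4, the blood and vessel factor Tal1, the barrier transporter Mfsd2a and the lymphatic factor Prox1.

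The course was not one steady rise. Between E8.5 and E10.5, 10 members rose and 10 fell, beside 28.2% and 21.3% of all genes (49.5% either way), with a member median of -0.04. From E10.5 to E12.5, 5 rose and 7 fell, beside 18.8% and 17.2% (35.9% either way), with a member median of -0.02. Most of the rise lay after E12.5, where 23 members were higher at E14.5 and 3 were lower, beside 25.3% and 28.6% of all genes (53.8% either way), with medians of 0.63 for the members and -0.03 for all genes. The 3 that fell there were Mfsd2a, Prox1 and Tal1. These 4 comparisons share stages with each other and are not independent. Without replicate b of E10.5, 6 members fell from E8.5 to E10.5, and without replicate c of E10.5, 3 rose from E10.5 to E12.5. With scaling by column totals alone, which shifts the median of all genes from E8.5 to E14.5 by 0.43 on the log2 scale, 25 members rose and 6 fell over the whole course, 11 and 4 by E10.5, 7 and 5 from E10.5 to E12.5, and 25 and 2 after E12.5. That scaling also moves the split over all genes: 71.3% of the calls over the whole course were then higher, against 55.0% with TMM scaling, and the figures for the 3 spans were 72.5% against 57.0%, 68.4% against 52.2% and 58.4% against 46.9%.

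Over the 10 steps from each stage to the next, members rose in 95 of 320 gene-step tests and fell in 67, beside 19.0% and 18.3% of such tests over all genes. In the step to E9, 9 members rose and 1 fell, where 20.2% of all genes passed and 7.66% fell. The step to E9.5 had 10 higher and 8 lower (11.1% and 11.7%; 22.8% either way), and the step to E10 had 3 higher and 12 lower (26.7% of all genes passed and 12.3% fell). Ly6a and Ly6c1 are among those 10 and those 12, and so among the 95 and the 67. They were singled out with their E9.5 levels known, so their calls in these 2 steps are no test. Eng, Plvap, Kdr, Flt1, Flt4 and Sox18 fell in both of those steps, though with scaling by column totals alone the first step of Kdr did not pass (adjusted p = 0.0677). In a fit without the E9.5 libraries, chosen after seeing the data, E10 against E9 had 6 members higher and 14 lower, beside 23.3% and 19.9% of all genes, and Eng, Plvap, Kdr, Flt1, Flt4 and Sox18 were among the 14. Apln also fell in both steps next to E9.5, but its second step did not pass when any 1 library of E9.5 or E10 was left out (adjusted p from 0.0511 to 0.120). At E10.5, 6 members rose and 0 fell (5.73% and 2.74%; 8.46% either way); at E11, 4 rose and 14 fell (19.2% and 17.3%; 36.5% either way); at E11.5, 14 rose and 1 fell (10.7% and 12.3%; 23.0% either way). In these 3 steps the direction of most calls thus changed from step to step. The steps to E12 and E12.5 had 9 higher and 12 lower (33.3% and 35.6%; 68.8% either way), then 8 and 8 (63.0% passed and 31.0% fell). The last steps had 14 higher and 5 lower at E13.5 (27.2% and 25.9%; 53.1% either way) and 18 higher and 6 lower at E14.5 (24.0% and 26.9%; 50.9% either way).

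**Figure D1:**
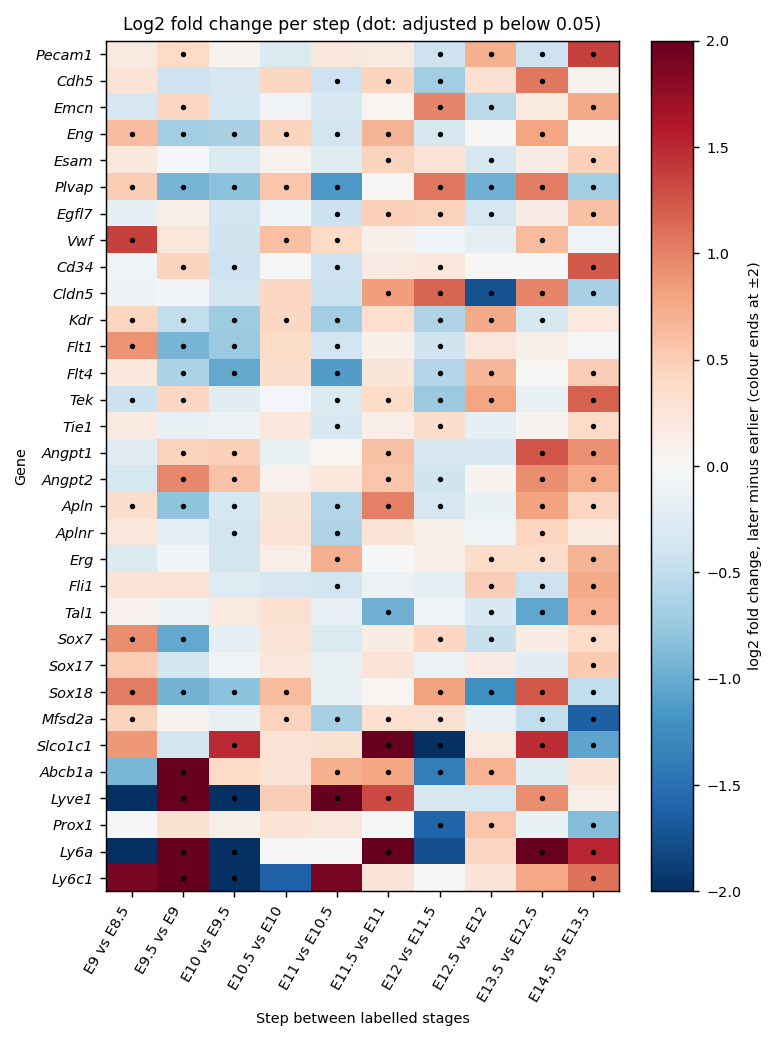
Log2 fold change of each of the 32 members (rows) in the 10 steps between neighbouring labelled stages (columns), later minus earlier, in colour that ends at ±2; a dot marks adjusted p below 0.05. Colour reaches its end for Ly6a, Ly6c1 and Lyve1 in the step to E9.5 and again in the step to E10, and in some other cells. The step to E14.5 holds 18 rises. Ly6a and Ly6c1 were picked for their E9.5 levels, so their dots in the steps to E9.5 and E10 are no test.

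By stage of the highest mean, 15 of 32 members peaked at E14.5, where 19.9% of all genes tested had their highest mean, and 7 peaked at E9, where 8.97% of all genes did. The E9 group was Plvap, Eng, Kdr, Flt1, Flt4, Sox7 and Sox18. The remaining 10 were highest at E9.5 (Fli1, Ly6a, Ly6c1), E10.5 (Tal1, Mfsd2a), E11 (Prox1), E11.5 (Slco1c1, Abcb1a), E12 (Cldn5) and E13.5 (Vwf). No member had its highest mean at E8.5, E10 or E12.5.

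Of the 10 surface and junction genes, 8 rose from E8.5 to E14.5, Plvap fell and Cldn5 did not pass, where 41.1% of all genes rose and 33.5% fell. Cdh5 (VE-cadherin, the adherens junction protein of endothelium; ENSMUSG00000031871, chromosome 8, 104101625 to 104144511, plus strand, GRCm38) measured 72.2, 71.8 and 71.1 CPM at E8.5 and 87.5, 87.1 and 86.6 CPM at E9. It stood between 48.5 and 73.2 CPM in every library from E9.5 to E11.5. At E12 it measured 30.8, 31.5 and 66.4 CPM, so replicate c, named by its column letter, was more than both others together. The E13.5 libraries gave 118, 118 and 99.5 CPM and the E14.5 libraries 130, 111 and 112 CPM, and all 6 were above every earlier library. The log2 fold change from E8.5 to E14.5 was 0.72 ± 0.15 (SE, adjusted p = 0.000143), and from E12.5 to E14.5 it was 1.13 ± 0.16 (adjusted p = 3.58e-07).

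Pecam1 (CD31, a junctional adhesion molecule of endothelium, platelets and some leukocytes; chromosome 11, 106654217 to 106750628, minus strand) took another course. Its libraries measured 28.9, 34.0 and 28.6 CPM at E8.5, 61.1, 60.7 and 65.1 CPM at E12.5, 50.003, 47.0 and 43.9 CPM at E13.5, and 123, 118 and 123 CPM at E14.5. The E13.5 libraries were thus below the E12.5 libraries (log2 fold change -0.41 ± 0.10, adjusted p = 0.000858) while Cdh5 rose in that step (1.06 ± 0.16, adjusted p = 1.68e-06). Pecam1 then rose by 1.37 ± 0.10 on the log2 scale at E14.5 (adjusted p = 1.24e-12), where the step of Cdh5 did not pass. Over the whole course Pecam1 rose by 1.99 ± 0.10 (adjusted p = 5.42e-17).

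Cd34, a sialomucin of small vessels, of blood progenitors and of some mesenchymal cells, had its largest step at E14.5, after smaller moves both ways. It measured 74.5, 71.6 and 76.4 CPM at E8.5, 54.3, 53.2 and 50.6 CPM at E11, 66.4, 67.4 and 71.1 CPM at E13.5, and 150, 162 and 165 CPM at E14.5. The E11 libraries were below all those of E8.5. The E9.5 libraries, at 91.8, 97.2 and 96.7 CPM, did not overlap those of E9 or E10. The last step was 1.22 ± 0.07 on the log2 scale (adjusted p = 1.07e-14). Vwf, the clotting factor stored in endothelial granules, rose early instead: 5.76, 6.46 and 5.73 CPM at E8.5, 12.2, 15.4 and 18.8 CPM at E9, 20.1, 21.3 and 20.7 CPM at E10.5, and 40.2, 38.4 and 31.9 CPM at E14.5. Its log2 fold change was 1.79 ± 0.16 by E10.5 (adjusted p = 2.21e-10) and 2.62 ± 0.16 by E14.5 (adjusted p = 7.81e-15). Emcn (endomucin), Esam, Eng (endoglin, a co-receptor for BMP9 and TGF-beta) and the secreted Egfl7 rose by between 0.44 and 0.79 on the log2 scale over the whole course.

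**Figure D2:**
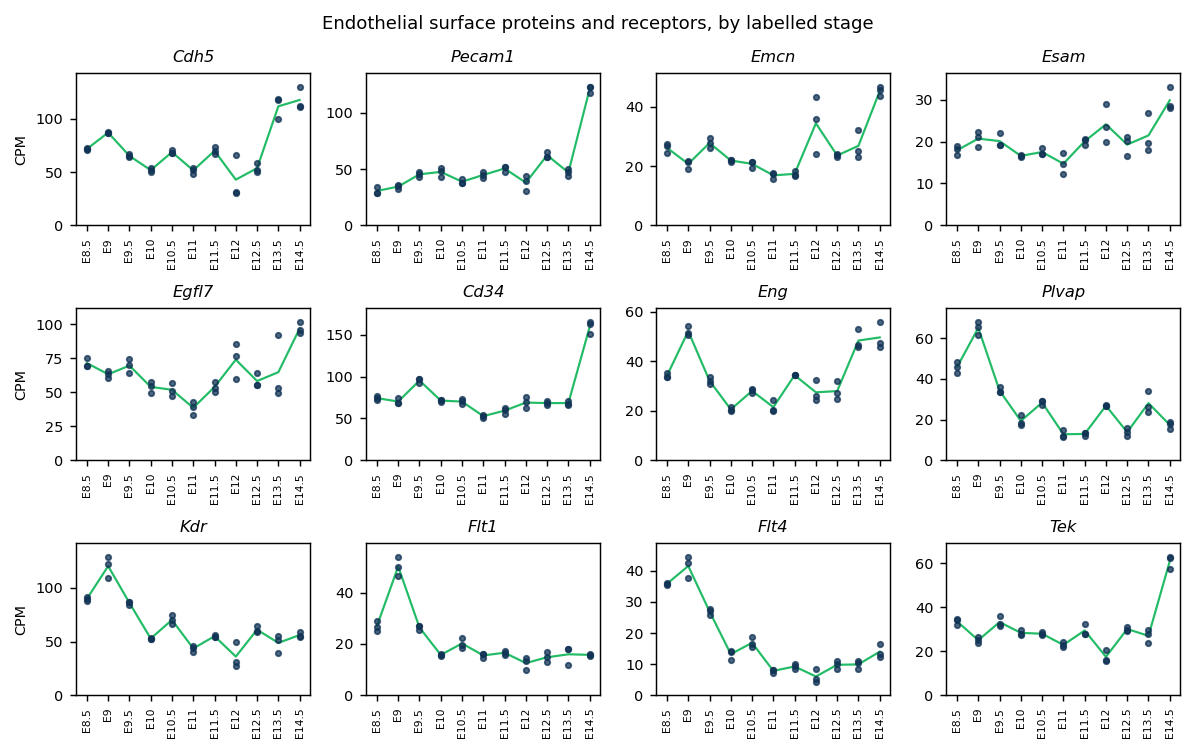
CPM (vertical axis, from 0) of 12 endothelial surface and receptor genes by labelled stage; points are the 3 libraries of a stage and the line joins their means. Cdh5, Pecam1, Emcn, Esam, Egfl7, Cd34 and Tek are highest at E14.5, while Eng, Plvap, Kdr, Flt1 and Flt4 are highest at E9.

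Plvap, which forms the diaphragms of fenestrae and caveolae (chromosome 8, 71497765 to 71511752, minus strand), was the surface gene that fell. It measured 46.0, 48.4 and 43.1 CPM at E8.5 and 61.6, 65.9 and 68.1 CPM at E9, its highest libraries. By E11 it was at 11.51, 14.6 and 12.2 CPM, and at E14.5 it was at 19.0, 15.3 and 17.8 CPM. The E12 and E13.5 libraries stood above their neighbours, at 26.5 to 27.2 CPM and 23.9 to 34.0 CPM. The log2 fold change from E8.5 to E14.5 was -1.40 ± 0.12 (adjusted p = 9.56e-12). Cldn5, the claudin of endothelial tight junctions, is also counted among barrier genes. It measured 30.5, 28.0 and 26.8 CPM at E8.5 and 32.6, 28.5 and 28.0 CPM at E14.5, with overlapping libraries and a log2 fold change of 0.06 ± 0.21 (adjusted p = 0.802). In between, the E12 libraries spread over 108, 80.9 and 47.9 CPM and those of E13.5 over 35.7, 34.0 and 69.7 CPM. At E12 ribosomal protein transcripts took 6.19% ± 2.12 (SD, n = 3) of counts, against 2.34% to 4.43% at the other stages; their part in the Cldn5 values was not tested.

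The 3 VEGF receptor genes fell together and early. Kdr (VEGFR2, the main signalling receptor for VEGF-A; chromosome 5, 75932827 to 75978458, minus strand) measured 87.8, 90.1 and 91.7 CPM at E8.5, 110, 123 and 129 CPM at E9, and 52.7, 52.5 and 53.1 CPM at E10. Its E14.5 libraries, at 54.6, 58.4 and 55.1 CPM, were all below those of E8.5. Flt1 (VEGFR1, which also acts as a decoy for VEGF-A) measured 25.3, 29.0 and 26.8 CPM at E8.5, 50.3, 46.5 and 54.1 CPM at E9, 15.8, 15.9 and 15.5 CPM at E10 and 15.5, 15.7 and 16.1 CPM at E14.5. After E10 its stage means stayed between 12.53 and 20.2 CPM. Flt4 (VEGFR3, the receptor for VEGF-C and VEGF-D, later held mainly by lymphatic vessels) measured 36.2, 35.9 and 35.6 CPM at E8.5, 37.7, 44.6 and 42.5 CPM at E9, and 7.24, 7.93 and 8.21 CPM at E11. It ended at 16.4, 13.2 and 12.4 CPM at E14.5, above the E12.5 libraries (0.52 ± 0.16, adjusted p = 0.00586) and below all those of E8.5.

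From E8.5 to E14.5 the log2 fold changes were -0.68 ± 0.13 for Kdr (adjusted p = 2.82e-05), -0.78 ± 0.13 for Flt1 (adjusted p = 3.31e-06) and -1.36 ± 0.15 for Flt4 (adjusted p = 2.29e-09). The call for Kdr did not hold with scaling by column totals alone, where its log2 fold change was -0.25 (adjusted p = 0.166), while those for Flt1 and Flt4 did. Relative to Cdh5 and per exonic length, Kdr stood at 0.583 ± 0.0173 at E8.5 and 0.223 ± 0.0247 at E14.5, and Flt4 at 0.255 ± 0.000557 and 0.0604 ± 0.00411 (SD, n = 3). The 2 stages did not overlap in either ratio. Over the 8 ratios to Cdh5 tested in this way, each had p = 0.1 by a two-sided exact permutation test (adjusted p = 0.1), the smallest that 3 libraries against 3 can give.

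Genes for 7 ligands of the VEGF, angiopoietin-like and apelin families lie outside the set. Of these, 5 rose from E8.5 to E14.5 and 2 fell, beside 41.1% and 33.5% of all genes, with medians of 1.92 and 0.16. The largest changes were those of Vegfd, a ligand of Flt4 (2.53 ± 0.22), Apela, a ligand of the apelin receptor Aplnr (2.48 ± 0.45), and Angptl4, an inhibitor of lipoprotein lipase (2.36 ± 0.13).

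All 4 genes of the Tie and angiopoietin group rose from E8.5 to E14.5, and 0 fell. Angpt1, the agonist ligand of Tek that is made mainly outside the endothelium, measured 8.64, 7.67 and 8.01 CPM at E8.5, 12.2, 14.0 and 10.2 CPM at E12.5, 32.4, 34.1 and 21.0 CPM at E13.5 and 50.3, 58.9 and 56.1 CPM at E14.5. Angpt2, the context-dependent antagonist released by endothelium, measured 1.9, 2.20 and 2.28 CPM at E8.5, 6.88, 6.80 and 7.0 CPM at E12.5 and 22.9, 21.8 and 21.4 CPM at E14.5. For both, the E14.5 libraries were above every library of every other stage. Their log2 fold changes over the whole course were 2.77 ± 0.16 (adjusted p = 1.31e-15) and 3.37 ± 0.18 (adjusted p = 1.52e-16). The receptors changed less: Tek went from 34.5, 34.4 and 31.8 CPM at E8.5 to 62.4, 63.0 and 57.4 CPM at E14.5 (0.86 ± 0.10, adjusted p = 2.71e-09), and Tie1 from a mean of 40.5 ± 0.828 to 57.8 ± 3.16 CPM (SD, n = 3; 0.51 ± 0.11, adjusted p = 0.000196). The step of Tek to E14.5, at 1.17 ± 0.10 (adjusted p = 2.41e-11), was larger than its rise over the whole course. Its E13.5 libraries, at 27.7, 29.6 and 23.6 CPM, were all below those of E8.5. Mural cell genes rose over the whole course, 11 of 12 from E8.5 to E14.5 with 1 lower, beside 41.1% and 33.5% of all genes. Their summed level went from 281 to 307 CPM in the E8.5 libraries to 559 to 626 CPM in those of E14.5. The part of mural cell genes in the Angpt1 values was not tested.

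Apln, the apelin peptide of sprouting tip cells, dipped and came back. Its stage means were 18.6 ± 0.665 CPM at E9, 6.50 ± 0.683 CPM at E11 and 22.3 ± 2.21 CPM at E14.5 (SD, n = 3). At E11.5 it rose from E11, with a log2 fold change of 1.00 ± 0.13 (adjusted p = 8.23e-07). The fall to E10.5 (-0.58 ± 0.13, adjusted p = 0.00032) and the rise after E12.5 (1.23 ± 0.12, adjusted p = 8.54e-10) both passed. Its receptor Aplnr, an early marker of venous endothelium and of mesoderm, followed with smaller steps, from 39.3 ± 3.10 CPM at E8.5 to 25.2 ± 1.06 CPM at E11 and 47.7 ± 1.38 CPM at E14.5. Its rise over the whole course was 0.28 ± 0.10 (adjusted p = 0.0105) and did not pass without replicate b of E8.5 (adjusted p = 0.0816).

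Among the 6 transcription factors, Erg, Sox7 and Sox17 rose from E8.5 to E14.5, Tal1 fell, and Fli1 and Sox18 did not pass. Over all genes tested, 41.1% rose and 33.5% fell. The rise of Sox7 did not pass without replicate a of E8.5 (adjusted p = 0.0620), replicate b of E8.5 (0.126) or replicate c of E14.5 (0.111). Erg, an ETS factor needed for endothelial junctions and vessel stability, measured 14.3, 15.0 and 14.7 CPM at E8.5, 9.90, 7.84 and 8.99 CPM at E10, 23.5, 22.3 and 22.1 CPM at E12.5 and 46.4, 46.6 and 48.1 CPM at E14.5. Its log2 fold change was -0.58 ± 0.14 by E10.5 (adjusted p = 0.00125) and 1.68 ± 0.14 by E14.5 (adjusted p = 3.3e-12). Fli1, its close relative, was highest at E9.5 with 26.9, 24.1 and 24.0 CPM and stood at 18.2, 20.3 and 17.6 CPM at E14.5. These ETS genes thus differed in their stage of highest level.

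The SOXF factors Sox7, Sox17 and Sox18 act together in arterial and lymphatic specification. Sox18 measured 12.7, 12.4 and 10.1 CPM at E8.5, 26.7, 21.8 and 23.0 CPM at E9 and 14.1, 11.8 and 11.1 CPM at E9.5. Sox7 was likewise highest at E9, with stage means of 6.51 ± 0.750, 12.4 ± 0.798 and 6.06 ± 0.618 CPM (SD, n = 3). In the step to E9 they rose by 1.03 ± 0.14 (adjusted p = 6.16e-06) and 0.93 ± 0.13 (adjusted p = 9.52e-06) on the log2 scale. Sox17 passed in no step before the last, in which it rose by 0.52 ± 0.19 (adjusted p = 0.0243). Kdr, Flt1, Plvap and Eng also rose in the step to E9 and fell in the step after it.

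Tal1, a factor of blood and endothelial precursors, rose to a mean of 28.9 ± 2.88 CPM at E10.5. Its libraries measured 32, 26.4 and 28.2 CPM at E10.5, 8.20, 10.8 and 11.4 CPM at E12.5 and 8.29, 8.46 and 7.46 CPM at E14.5. The log2 fold change from E10.5 to E12.5 was -1.51 ± 0.12 (adjusted p = 4.04e-11). Red cell genes moved beside it: the mean of Gata1 went from 7.64 CPM at E10.5 to 1.25 CPM at E12.5, and that of Klf1 from 9.63 to 2.65 CPM. Of 12 blood progenitor and red cell genes, 7 fell from E10.5 to E12.5 and 2 rose (17.2% and 18.8% of all genes), and their summed level ranged from 174 to 180 CPM at E10.5 and from 145 to 162 CPM at E12.5. Their part in the fall of Tal1 was not tested.

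The 3 barrier transporters rose from E8.5 to E10.5 and then parted. Mfsd2a, the lysophospholipid transporter of brain endothelium that keeps transcytosis low (chromosome 4, 122946850 to 122961188, minus strand), measured 15.3, 14.3 and 16.0 CPM at E8.5, 26.7, 26.9 and 26.6 CPM at E10.5 and 24.8, 23.7 and 23.1 CPM at E12.5. It then went to 16.6, 16.0 and 18.6 CPM at E13.5 and 6.42, 5.09 and 4.94 CPM at E14.5. The E14.5 libraries were below every other library of the series. The log2 fold change was 0.81 ± 0.11 by E10.5 (adjusted p = 5.89e-07) and -2.12 ± 0.12 from E12.5 to E14.5 (adjusted p = 3.86e-15), the span in which 9 of the 10 surface and junction genes rose. Its per-length ratio to Cdh5 went from 0.397 ± 0.0240 at E8.5 through 0.835 ± 0.0858 at E12.5 to 0.0867 ± 0.00507 at E14.5 (SD, n = 3). The E14.5 ratio was thus 4.58-fold below that of E8.5 (two-sided exact permutation p = 0.1). Other tissue changed from E12.5 to E14.5 as well. Of 8 neuron genes, 5 fell and 1 rose (28.6% and 25.3% of all genes), and their sum went from 1611 to 1632 CPM at E12.5 to 562 to 580 CPM at E14.5. Their part in the Mfsd2a values was not tested.

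**Figure D3:**
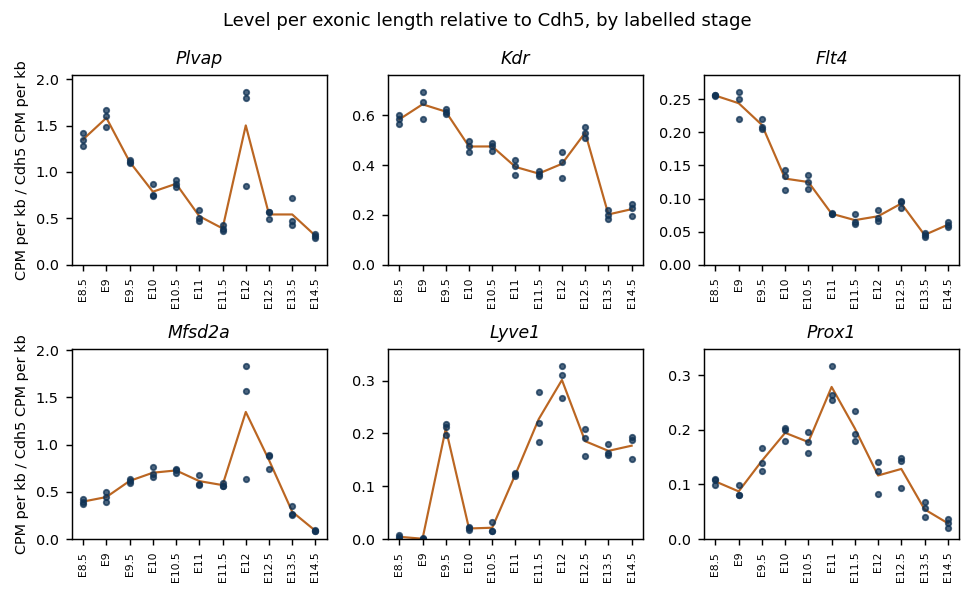
Level per exonic length of 6 members divided by that of Cdh5 in the same library (vertical axis, from 0) by labelled stage; points are libraries and the line joins their means. Plvap, Kdr and Flt4 end lower than they start, Mfsd2a and Prox1 rise and then fall below their start, and Lyve1 is high at E9.5 alone before E11; at E12 the Plvap and Mfsd2a points are far apart.

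Slco1c1, a carrier of thyroxine in brain endothelium and in choroid plexus, was near the limit of counting at first, with 0.140, 0.497 and 0.175 CPM at E8.5, and reached 1.23, 1.18 and 1.44 CPM at E10.5. It was highest at E11.5, with 8.10, 6.20 and 8.21 CPM, and measured 1.63, 1.42 and 1.11 CPM at E12, 4.40, 5.0 and 3.52 CPM at E13.5 and 1.98, 2.57 and 1.69 CPM at E14.5. The E11.5 libraries overlapped with no other stage. Its rise to E11.5 and its fall to E12 were 2.22 ± 0.25 (adjusted p = 1.07e-07) and -2.45 ± 0.27 (adjusted p = 5.88e-09) on the log2 scale, and the rise over the whole course was 2.93 ± 0.39 (adjusted p = 7.87e-08). Choroid plexus genes moved with it: Ttr, the thyroxine-binding protein of that epithelium, had means of 44.1 CPM at E11, 466 CPM at E11.5, 168 CPM at E12, 180 CPM at E12.5, 628 CPM at E13.5 and 93.7 CPM at E14.5. The 7 choroid plexus genes together summed to 151 to 156 CPM at E11, 578 to 594 CPM at E11.5 and 221 to 319 CPM at E12. Most of the change in that sum was Ttr itself. Of the 7 genes, 5 rose and 1 fell in the step to E11.5, beside 10.7% and 12.3% of all genes. In the step to E12, 1 rose and 4 fell, beside 33.3% and 35.6%. Their part in the Slco1c1 values was not tested.

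Abcb1a, the P-glycoprotein drug efflux pump of brain endothelium, measured 0.421, 0.142 and 0.468 CPM at E8.5, 2.80, 2.11 and 1.9 CPM at E10.5, 7.29, 5.44 and 6.47 CPM at E11.5 and 4.54, 4.07 and 3.43 CPM at E14.5. Like Slco1c1 it was highest in the E11.5 libraries, and it rose by 3.49 ± 0.35 on the log2 scale over the whole course (adjusted p = 3.44e-10). From E12.5 to E14.5 neither it nor Slco1c1 passed. Of 18 other genes linked to the blood-brain barrier, 6 rose from E8.5 to E14.5, 10 fell and 2 did not pass, with a median of -0.73. Over all genes tested, 41.1% rose and 33.5% fell, with a median of 0.16. The largest changes were a fall of the glucose transporter Slc2a1, from a mean of 752 to 112 CPM (-2.75 ± 0.09, adjusted p = 7.25e-22), a rise of Spock2 (2.69 ± 0.11) and a fall of the transferrin receptor Tfrc (-2.28 ± 0.11). Many of these genes are used by other cells too, so their levels do not stand for brain vessels alone.

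**Figure D4:**
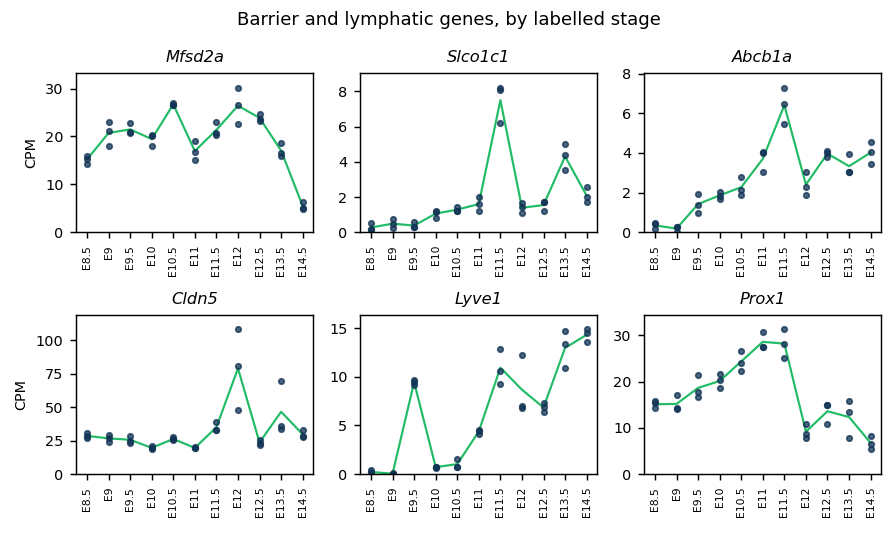
CPM (vertical axis, from 0) of the barrier and lymphatic genes by labelled stage; points are the 3 libraries of a stage and the line joins their means. Mfsd2a is lowest at E14.5, Slco1c1 and Abcb1a are highest at E11.5, Cldn5 is high and spread at E12, Lyve1 is high at E9.5 and from E11.5 on, and Prox1 drops between E11.5 and E12.

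The 2 lymphatic members went opposite ways over the whole course. Lyve1, a hyaluronan receptor of lymphatic endothelium and of some macrophages (chromosome 7, 110850607 to 110863239, minus strand), measured 0.421, 0.213 and 0 CPM at E8.5, 4.16, 4.55 and 4.47 CPM at E11, 6.88, 7.27 and 6.41 CPM at E12.5 and 13.6, 14.9 and 14.6 CPM at E14.5. The E14.5 libraries held 850 counts of it and those of E8.5 held 9, and the log2 fold change was 6.12 ± 0.37 (adjusted p = 4.45e-15). It was also high at E9.5, with 9.66, 9.53 and 9.18 CPM between 0, 0.115 and 0 CPM at E9 and 0.747, 0.643 and 0.763 CPM at E10. With 480 counts at E9.5 and 2 at E9, that ratio was 232, with an exact 95% counting interval from 63.8 to 1918. Macrophage genes rose as well: all 12 of a list of 12 were higher at E14.5 than at E8.5, and their sum went from 1.93 to 2.74 CPM at E8.5, through 50.7 to 55.8 CPM at E9.5 and 80.2 to 83.9 CPM at E10, to 374 to 398 CPM at E14.5. The list did not move as 1 in the step to E10, where 4 of the 12 rose and 2 fell. Mrc1, which tissue macrophages and lymphatic endothelium share, had means of 0.700, 9.22 and 19.9 CPM at E9, E9.5 and E10. Cd163, another of the 12, had 0, 0.631 and 0.0585 CPM at these stages. The part of macrophages in the Lyve1 values was not tested.

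Prox1, the factor that sets lymphatic identity and that neural progenitors, lens and muscle also use (chromosome 1, 190118035 to 190170714, minus strand), measured 14.2, 15.7 and 15.4 CPM at E8.5, 30.7, 27.5 and 27.5 CPM at E11, 31.2, 25.2 and 28.2 CPM at E11.5, 8.71, 7.89 and 10.9 CPM at E12 and 5.40, 6.53 and 8.24 CPM at E14.5. Between E12 and E14.5 it measured 14.9, 15.0 and 10.9 CPM at E12.5 and 13.3, 15.8 and 7.84 CPM at E13.5. The low level at E12 thus did not hold in every later library, and the E12 and E13.5 libraries are the more spread ones. The E11 and E11.5 libraries overlapped each other and lay above those of E12 and of all later stages. The step to E12 was -1.61 ± 0.18 on the log2 scale (adjusted p = 7.45e-09), and the change from E8.5 to E14.5 was -1.16 ± 0.18 (adjusted p = 2.04e-06). Neuron genes moved beside it in part: Dcx, a microtubule protein of young neurons, had means of 408 CPM at E11, 546 CPM at E11.5, 132 CPM at E12 and 75 CPM at E14.5. The 8 neuron genes together summed to 2737 to 2803 CPM at E11.5, 2039.7 to 2570.0 CPM at E12 and 562 to 580 CPM at E14.5; their part in the Prox1 values was not tested. Of 10 other lymphatic genes, 7 rose from E8.5 to E14.5, 1 fell and 2 did not pass, where 41.1% of all genes rose and 33.5% fell. The 10 were led by the chemokine Ccl21a (0 to 1.83 CPM), Nts (0.172 to 3.72 CPM) and the scavenger receptor Stab2 (0.305 to 0.797 CPM).

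Set side by side per exonic length and relative to Cdh5, 5 members differed in direction between E8.5 and E14.5. Plvap does not stand for the 10 surface and junction genes, of which it was the 1 that fell in CPM. Plvap went from 1.35 ± 0.0718 to 0.312 ± 0.0232, Slco1c1 from 0.00306 ± 0.00221 to 0.0144 ± 0.00370, Abcb1a from 0.00368 ± 0.0019 to 0.0261 ± 0.00235, Lyve1 from 0.00422 ± 0.00420 to 0.177 ± 0.0228 and Prox1 from 0.105 ± 0.00605 to 0.0290 ± 0.00801 (SD, n = 3). Among them, Slco1c1, Abcb1a and Lyve1 gained on Cdh5 and Plvap and Prox1 lost, with libraries that did not overlap in any of the 5 (two-sided exact permutation p = 0.1 each). The choice of Cdh5 matters here, since Pecam1 itself went from 0.287 ± 0.0278 to 0.697 ± 0.0527 relative to Cdh5 (SD, n = 3). Ratios to Pecam1 were not tested. Neither the barrier transporters nor the lymphatic genes thus shared one direction. On the scale of level per length, Cdh5 stood at 28.0 CPM per kb at E14.5, Lyve1 at 4.91, Mfsd2a at 2.44, Prox1 at 0.801, Abcb1a at 0.733 and Slco1c1 at 0.401.

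Ly6a and Ly6c1 were high in the 3 libraries labelled E9.5 and nearly undetected on either side. Ly6a (Sca-1, a surface protein of blood stem cells and of many endothelial and stromal cells; ENSMUSG00000075602, chromosome 15, 74994877 to 74998031, minus strand) held 633, 490 and 655 counts at E9.5, which is 37.3, 31.1 and 36.2 CPM. It held 0 counts in all 12 libraries of E9, E10, E10.5 and E11. At E8.5 it held 2, 0 and 0 counts and at E11.5 4, 5 and 5. The E9.5 mean of 34.9 ± 3.29 CPM (SD, n = 3) was at least 569.9-fold above E9 and at least 599-fold above E10, taking 3 counts over the group as the limit that a count of 0 allows. These limits cover counting error only. Since Ly6a and Ly6c1 were picked for this pattern, their E9.5 values are a description, and their calls in the steps to E9.5 and E10 are no test.

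By E14.5 Ly6a had come up to 0.802, 1.39 and 2.29 CPM, from 91 counts against 2 at E8.5. That ratio was 34.9, with an exact 95% counting interval from 9.39 to 293. Ly6c1, a surface protein of endothelium, monocytes and lymphocytes (ENSMUSG00000079018, chromosome 15, 75044018 to 75048830, minus strand), measured 0.412, 0 and 0.137 CPM at E9, 12.1, 12.6 and 10.7 CPM at E9.5 and 0.187, 0.234 and 0.272 CPM at E10. It stood at 0.802, 2.09 and 1.65 CPM at E14.5. Its E9.5 libraries thus overlapped those of no neighbouring stage. The 2 genes lie near each other in a family of similar copies, between which short reads can be shared, so the split of counts among them is uncertain. Of 10 other Ly6 family genes, 5 passed the filter on low counts.

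**Figure D5:**
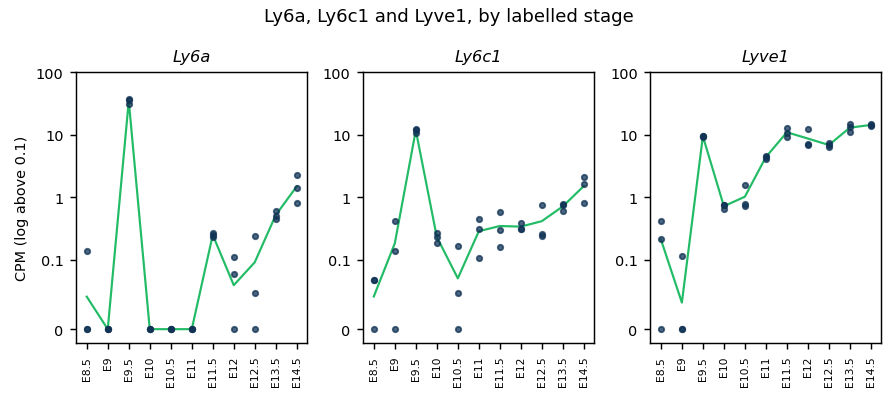
CPM of Ly6a, Ly6c1 and Lyve1 by labelled stage on a vertical axis that is logarithmic above 0.1 and linear below it; points are libraries and the line joins the stage means. All 3 are at or above 9.18 CPM in each E9.5 library, and at or below 0.763 CPM in each library of E9 and E10.

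Few genes behaved like this. Counting genes at least 8-fold above both neighbouring stages with both steps passing, a rule chosen after the values were seen, 106 genes (0.528% of those tested) peaked at E9.5, and 3 of them were members: Lyve1 and the pair picked for it, Ly6a and Ly6c1. At the other 8 stages with a neighbour on both sides, between 0 and 50 genes and 0 members met the rule. None of the 10 surface and junction genes, the 3 VEGF receptors or the 18 other endothelial genes was among the 106. Other cell types were: Myh11 and Cnn1 of the 12 mural genes, Dcn of the 8 mesenchyme genes, Cd163 of the 12 macrophage genes and Ccl21a of the 10 other lymphatic genes. Among the highest of the 106, chosen after their values were seen, were Ctla2a at 113 ± 1.99 CPM, the smooth muscle actin Actg2 at 64.6 ± 4.67 CPM, Dcn at 57.8 ± 0.990 CPM, Mgp at 36.9 ± 1.71 CPM and the complement gene C3 at 23.2 ± 0.465 CPM (SD, n = 3). Each was under 5 CPM at E9 and at E10. Genes of trunk patterning and of fat were there too, also named after their values were seen. The Hox genes among the 106 numbered 6, and of these Hoxa10, which patterns the posterior trunk, had 0 CPM at E9, 1.14 ± 0.455 at E9.5 and 0 at E10, and Hoxd9 had 0, 0.471 ± 0.0264 and 0 CPM. Hoxb1, a hindbrain and trunk gene, had 0, 1.68 ± 0.252 and 0.0182 CPM. Adipoq, the adipocyte hormone adiponectin, had 0.0765, 1.36 ± 0.132 and 0.0597 CPM, and Cfd, the adipocyte protease adipsin, had 0.0812, 8.79 ± 1.75 and 0 CPM (SD, n = 3).

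The marker lists moved in the same libraries. Of 12 mural genes, 7 rose in the step to E9.5 and 6 fell in the step to E10; Acta2 went from 22.9 to 124 and then 17.9 CPM, and Tagln from 8.36 to 79.7 and then 15.4 CPM. The mural sum was 425 to 463 CPM at E9, 576 to 602 CPM at E9.5 and 394 to 427 CPM at E10. All 12 macrophage genes rose in the step to E9.5, and 4 rose and 2 fell in the next. Of the 18 other endothelial genes, 3 rose and 3 fell in the step to E9.5, near the shares of all genes, and 6 fell in the step to E10. Neuron and mesenchyme genes moved too: 7 of 8 and 6 of 8 rose in the step to E9.5, and 0 fell. In the step to E10, 7 neuron genes rose and 0 fell, while 2 mesenchyme genes rose and 5 fell. The part of these other cell types, and of RNA of another source, in the Ly6a, Ly6c1 and Lyve1 values at E9.5 was not tested.

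Of 18 endothelial genes outside the set, 11 rose from E8.5 to E14.5, 4 fell and 3 did not pass, with a median log2 fold change of 0.39. Over all genes tested 41.1% rose and 33.5% fell. The largest changes were a fall of Etv2, the factor that starts the endothelial programme, from a mean of 4.51 to 0.0763 CPM (-5.64 ± 0.62, adjusted p = 8.34e-09), and rises of Clec14a from 5.69 to 41.2 CPM (2.86 ± 0.11, adjusted p = 1.89e-19) and of Robo4 from 4.13 to 25.4 CPM (2.62 ± 0.14, adjusted p = 1.61e-16). Of 12 arterial and venous genes, 6 rose and 3 fell, counts close to those shares of all genes. They were led by the kinase gene Bmx, from 0 to 1.15 CPM, the semaphorin and VEGF co-receptor Nrp1 (2.27 ± 0.15) and the arterial connexin Gja5 (2.01 ± 0.16). Over the same span the mural genes Kcnj8, Rgs5 and Cspg4, markers of pericytes, went from 0.0237 to 13.6, from 0.334 to 43.3 and from 0.597 to 34.9 CPM.

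Likeness of course was measured over the 11 stage means of log2 CPM, each gene centred on its own mean, as the root mean square distance, among 14932 genes. The nearest to Cdh5 were Itpr2 (0.150), H6pd (0.155), Lrrk1 (0.163), Itprid2 (0.166), Fam217b (0.168), Tsku (0.176), Acsl1 (0.176) and Sept8 (0.180). The nearest member was Eng, at 0.233, so no other endothelial member of the set was as near to Cdh5 as these 8. The nearest to Ly6a were Serpina3n (0.408), C3 (0.892), Igfbp6 (0.917), Myh11 (0.986), H2-Aa (0.997), C4b (1.03), Ctla2a (1.13) and Msln (1.15), and Ly6c1 stood at 0.908. All points come from the same 33 libraries and share their depth and scaling.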

How the data were processed

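The deposited file is 1 table of raw counts per gene, made by the authors with cutadapt 1.9.1, HISAT2 2.0.1 and HTSeq 0.6.1 on genome build GRCm38, per the submitters' processing notes. Neither the annotation release nor the strand setting is given in the sources used here, so reads from overlapping antisense genes cannot be told apart. Columns were tied to stages by name; their letters a, b and c could not be tied to the labels' replicate numbers. Symbols and positions came from GENCODE M21 (GRCm38), and 55141 of the 55401 gene identifiers had a symbol. Exonic lengths were those deposited by the authors beside the counts.

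Counts were fitted for all 33 libraries at once with edgeR 4.0.16 (TMM factors 0.797 to 1.175, filterByExpr, quasi-likelihood F test, 22 residual degrees of freedom), and p-values were adjusted by Benjamini-Hochberg over the 20073 genes tested, threshold 0.05. Standard errors are the log2 fold change divided by the square root of F, an approximation. The prior count of 2 applies to log2 CPM values, not to fitted fold changes, which kept the default of edgeR. Fitted fold changes are no bound for genes near 0 counts. Limits for counts of 0 take 3 counts over a stage. Tested on simulated data for E14.5 against E8.5 (19089 genes), the fit recovered 56.7% of 1.5-fold, 94.0% of 2-fold and 100% of 4-fold changes, with 4 false calls. The simulation raised only 67, 67 and 66 genes by these folds, none near 0 counts, and left all others flat over the stages. In the real comparison 74.6% of all genes passed, so these rates need not hold there or for members near 0 counts.

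The members and lists were chosen with earlier results of these data known. Every member is accounted for; values per library follow a rule that names 14 genes and the 3 largest rises and falls in each main comparison, and context genes are the 3 largest changes of their list. Alternatives were other scalings (DESeq2 1.42.0 size factors, column totals), filters, DESeq2's test, a replicate block, a gene length trend, subsets of stages, leaving out each library and, chosen after seeing the data, leaving out E9.5.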

Additional observations from a re-analysis of the deposited data

How the results depend on the processing

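The counts of members called kept within 1.5 times their value under most alternatives. For the fall from E8.5 to E10.5 (10 members), column totals alone gave 4. For the rise from E10.5 to E12.5 (5 members), fitting only the libraries compared gave 8, leaving out the E11.5, E12 and E13.5 stages gave 8, and the E11.5 libraries in place of those of E12.5 gave 12; that last exchange also gave 5 for the fall to E14.5 (3 members). The cause was not tested. Without the E9.5 stage, an alternative chosen after seeing the data, 22 members rose and 7 fell over the whole course, 10 and 10 by E10.5, 5 and 7 from E10.5 to E12.5, and 23 and 2 after that.

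Leaving out 1 library at a time gave 31 to 32 members differing over the stages; 20 to 22 rises and 7 to 7 falls from E8.5 to E14.5; 9 to 10 and 6 to 9 by E10.5; 3 to 6 and 6 to 7 from E10.5 to E12.5; 20 to 23 and 2 to 3 from E12.5 to E14.5; and 88 to 107 rises and 60 to 81 falls over the steps.

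Single genes were recomputed for E14.5 against E8.5 and for the steps to E9.5 and E10 only; in these, the directions that turned were of values that passed in neither fit. With column totals alone these were, from E9 to E9.5, Esam (0.038), Cldn5 (0.024) and Erg (0.021), and from E9.5 to E10 Sox17 (0.013). When 1 library was left out, the step to E9.5 ranged from -0.11 to 0.011 for Esam, -0.15 to 0.013 for Cldn5, -0.13 to 0.040 for Erg, -0.041 to 0.13 for Mfsd2a and -0.76 to 0.097 for Slco1c1, the step to E10 from -0.21 to 0.056 for Sox17, and the change from E8.5 to E14.5 from -0.016 to 0.13 for Cldn5. With column totals alone, Cldn5 (0.49), Fli1 (0.56) and Sox18 (0.56) passed as rises from E8.5 to E14.5. Sox7 lost that call with no filter on low counts (adjusted p = 0.103) and without 1 of replicates a and b of E8.5 or c of E14.5, and Aplnr without replicate b of E8.5. Over genes and settings together, the step to E9.5 gained 11 calls and lost 12, and the step to E10 gained 30 and lost 15. Cdh5 newly passed as a fall to E9.5 with DESeq2 size factors (-0.43), among other settings. With only the libraries compared, Cdh5, Emcn, Esam, Egfl7, Vwf, Cldn5, Tek, Erg and Fli1 newly passed as falls to E10.

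With the column letter as a replicate block, 22 members rose and 7 fell from E8.5 to E14.5, 10 and 10 by E10.5, 5 and 7 to E12.5, 23 and 3 after that, and 95 rose and 65 fell over the steps. The letters do not pair the libraries: deviations from the stage means correlated with a median of -0.016 for the same letter and 0.001 for other letters, and 6 of 33 libraries correlated best with their own letter. Over the 250 bases before the start alone, ETS letters stood in 24% of member promoters and 17% of all, and GATA letters in 8% and 9.99%.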
